A study of Mus musculus with 19 samples.

Results

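Single mouse embryos that lacked Gabpb1 were compared with embryos of the same cross at the morula stage, across all genes measured. The members were taken from the submitters' genotype labels: 3 morulae labelled Gabpb1 KO and 2 labelled as WT or heterozygous, which makes 5 of the 19 embryos in the series. All 5 came from in vitro fertilisation of Gabpb1+/- oocytes with Gabpb1+/- sperm, carry the strain label B6D2F1, and were grown in vitro, in KSOM medium, until 96 hours after insemination. The 14 embryos outside the comparison are 2 Alyref KO morulae, 3 non-KO morulae of the Alyref+/- cross, and 9 blastocysts (3 non-KO of each cross and 3 WT), collected at the same time. An embryo was labelled KO when its own RNA-seq reads were missing over the deleted region, so the genotype and the expression values come from the same library. The non-KO embryos may be WT or heterozygous, and each embryo is 1 library.

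GABP is a transcription factor built from GABPA, which binds DNA through an ETS domain, and a GABPB subunit, which carries the activation domain and the nuclear localisation signal. GABPB1 and GABPB2 are alternative partners of GABPA. The complex binds sites around the letters CCGGAAG close to transcription starts and is best known for driving nuclear genes that build mitochondria, together with many other housekeeping genes.

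Counts over the whole Gabpb1 gene do not check the label, because the deleted region was not counted separately. Gabpb1 (chromosome 2, 126627442 to 126676337, GRCm38) stood at 78.2, 259 and 151 CPM (counts relative to the scaled library total) in KO embryos 1 to 3 and at 93.8 and 83.3 CPM in the non-KO embryos, so the groups overlapped and reads were counted over the gene in every KO embryo. The log2 fold change, KO minus non-KO, was 0.88 ± 0.39 (SE; adjusted p = 0.243 in edgeR's quasi-likelihood test with Benjamini-Hochberg adjustment, as for every adjusted p below). Gabpa, the DNA-binding partner, stood at 241, 290 and 496 CPM against 180 and 129 CPM, every KO embryo above both non-KO embryos (log2 1.14 ± 0.29, adjusted p = 0.0518). Gabpb2, the alternative partner, stood at 35.7, 26.4 and 25.5 CPM against 23.5 and 17.2 CPM (log2 0.52 ± 0.28, adjusted p = 0.332). On the FPKM scale, which divides by exon length, the mean level of Gabpa was 59.4 FPKM in the KO embryos and 27.9 FPKM in the non-KO embryos. The antisense gene Gm27003 overlaps Gabpb1, and Atp5j overlaps Gabpa on the opposite strand, and the strand setting of the counting is not given in the sources used here.

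The 5 libraries held 11201598 to 14377938 counts on genes, and 4 Y-linked genes showed that sex was mixed in both groups: they summed to 249, 470 and 0.142 CPM in KO embryos and to 237 and 0 CPM in non-KO embryos. Of 14 cumulus and granulosa markers, 2 to 6 had a count and summed to 10.4 to 24.5 CPM; of 9 sperm markers, 2 to 6 had a count and summed to 1.85 to 3.01 CPM. KO embryo 2 had counts on 23167 genes, the fewest of all 19 embryos, against 25532 to 26085 in the rest of the 5. It also stood furthest from the non-KO embryos. Over 9260 genes, its correlations of log2 levels with the non-KO embryos were 0.80 and 0.78, against 0.92 between the non-KO embryos (values across genes, which are not replicates). With KO embryo 3 its correlation was 0.90. KO embryo 1 had 0.83 and 0.88 with KO embryos 2 and 3, and 0.90 and 0.85 with non-KO embryos 1 and 2. The labels do not say which parents gave which embryo, so p-values rest on a spread between embryos. That spread was estimated over all 19 embryos in 7 groups, blastocysts included, and not over these 5 alone.

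More genes were lower than higher in the Gabpb1 KO embryos. Of 18410 genes tested, 303 (1.65%) were called at an adjusted p under 0.05: 64 (0.348%) were higher and 239 (1.3%) were lower in the KO embryos. Among protein-coding genes alone, 54 of 11518 (0.469%) were higher and 209 (1.81%) were lower. The median log2 fold change of all tested genes was 0.06, and 9742 genes (52.9%) were above 0. Scaled to the spike-in RNA instead, that median moved to -0.40 and the calls shrank to 26, none higher and 26 lower. The count also hung on single libraries: it was 966 without KO embryo 1, 118 without KO embryo 2, 137 without KO embryo 3, 138 without non-KO embryo 1 and 48 without non-KO embryo 2. A fit on the 5 embryos alone, with 3 residual degrees of freedom in place of a spread shared over all 19, called 0 genes in edgeR, with 2180 at an unadjusted p under 0.05 against 3476 in the shared fit (1591 higher, 8.64%, and 1885 lower, 10.2%).

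**Figure D1:**
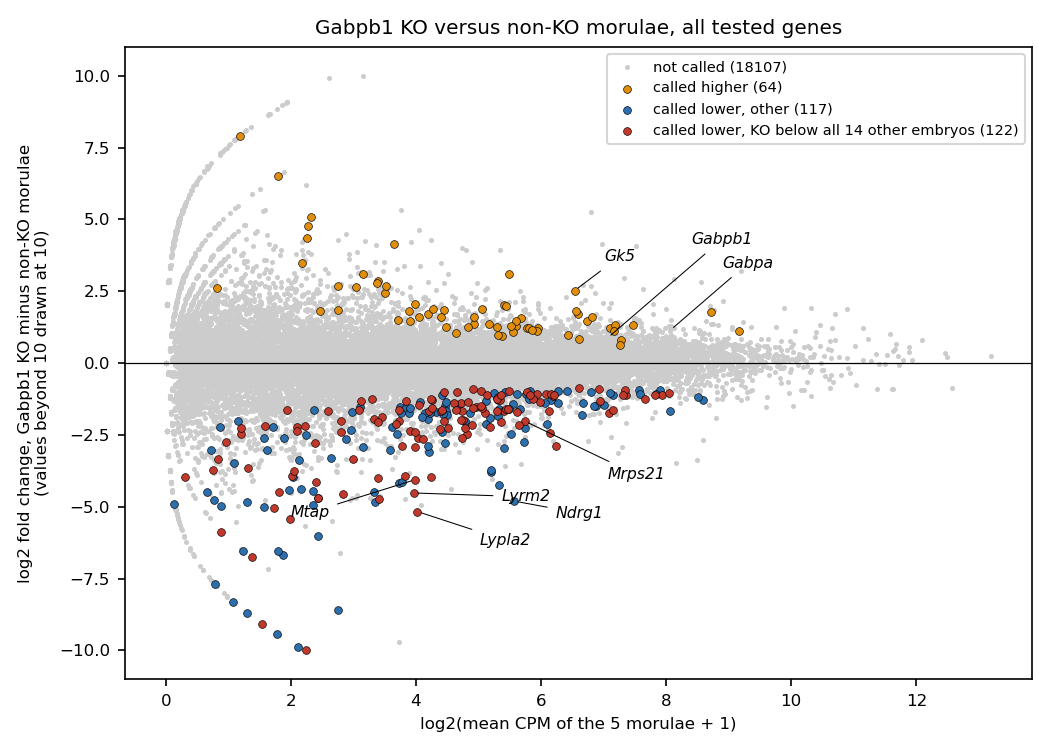
Each point is a tested gene, with the log2 mean level over the 5 morulae on the x axis and the log2 fold change, KO minus non-KO, on the y axis. The 239 genes called lower lie below 0 over a wide range of levels and outnumber the 64 called higher, and Gabpb1 itself lies among the genes not called.

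Lypla2 had the smallest adjusted p of all genes. It encodes an acyl-protein thioesterase, an enzyme that removes palmitate from proteins, and lies on chromosome 4 (135968224 to 135972626). Its level was 1.03, 0.926 and 1.06 CPM in the KO embryos and 30.4 and 42.9 CPM in the non-KO embryos. The 14 embryos outside the comparison lay between 13.1 and 46.3 CPM, so no embryo without the KO label came near the KO values. The log2 fold change was -5.17 ± 0.39 (adjusted p = 1.08e-05). Its promoter is printed with those of Mrps21, Tmem126a and Tfpt, the genes named here with the smallest adjusted p whose promoter window holds the ETS core CCGGAAG. Capitals mark the core, which reads CTTCCGG where it lies on the other strand. The windows are RefSeq promoters on GRCm38.p6, all of genes on the minus strand, written 5′ to 3′ from 250 bases before to 50 bases after the start: chr4:135972545-135972844, chr3:95871465-95871764, chr7:90457154-90457453 and chr7:3629880-3630179.
Lypla2: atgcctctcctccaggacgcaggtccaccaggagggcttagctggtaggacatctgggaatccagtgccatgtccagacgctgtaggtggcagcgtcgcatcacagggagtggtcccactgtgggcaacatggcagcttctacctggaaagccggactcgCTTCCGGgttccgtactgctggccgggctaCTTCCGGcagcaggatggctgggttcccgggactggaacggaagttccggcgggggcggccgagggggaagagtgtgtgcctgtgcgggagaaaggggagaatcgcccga
Mrps21: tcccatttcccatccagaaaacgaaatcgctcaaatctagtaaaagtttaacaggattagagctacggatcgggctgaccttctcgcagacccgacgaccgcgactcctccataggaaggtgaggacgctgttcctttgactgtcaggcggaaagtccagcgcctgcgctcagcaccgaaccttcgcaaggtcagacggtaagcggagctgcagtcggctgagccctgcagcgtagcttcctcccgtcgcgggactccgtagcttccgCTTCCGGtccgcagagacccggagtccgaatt
Tmem126a: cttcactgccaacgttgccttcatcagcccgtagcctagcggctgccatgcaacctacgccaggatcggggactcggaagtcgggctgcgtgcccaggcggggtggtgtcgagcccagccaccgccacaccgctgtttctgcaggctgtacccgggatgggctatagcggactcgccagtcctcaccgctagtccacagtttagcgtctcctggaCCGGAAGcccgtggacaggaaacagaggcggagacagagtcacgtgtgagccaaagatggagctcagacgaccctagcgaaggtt
Tfpt: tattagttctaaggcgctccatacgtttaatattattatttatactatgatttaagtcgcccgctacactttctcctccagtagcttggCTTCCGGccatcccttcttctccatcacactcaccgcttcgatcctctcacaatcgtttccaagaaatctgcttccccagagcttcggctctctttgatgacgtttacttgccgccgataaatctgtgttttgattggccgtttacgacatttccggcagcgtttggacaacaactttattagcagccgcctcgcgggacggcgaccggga
In Lypla2 the 2 cores are centred 87 and 57 bases before the start, in Tmem126a the core is 32 bases before it, and in Mrps21 the core lies at position 22 after the start. In Tfpt, which was higher in the KO embryos, it lies 158 bases before the start. The letters are a description of the window and do not show binding.

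Lyrm2, Tmem126a and Mrps21, named by the rule, encode mitochondrial proteins. Lyrm2, which encodes a small LYR-motif protein of the mitochondrial matrix (chromosome 4, 32800253 to 32801559), stood at 1.55, 0.648 and 2.2 CPM in the KO embryos against 28.1 and 40.6 CPM (log2 -4.52 ± 0.39, adjusted p = 3.37e-05), and at 25.3 to 57.9 CPM in the 14 other embryos. Tmem126a, for an inner-membrane protein needed for assembly of respiratory complex I, stood at 6.2, 0.555 and 1.13 CPM against 40.1 and 41.1 CPM (log2 -3.95 ± 0.66, adjusted p = 0.0091). Mrps21, for a subunit of the small mitochondrial ribosome, was nearly the same in each KO embryo at 23.5, 24.3 and 22.8 CPM, against 78.5 and 113 CPM (log2 -2.02 ± 0.24, adjusted p = 0.000861). In all 3 genes the KO embryos lay below every one of the 16 others.

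Genes of other roles fell too. Mtap, the first enzyme of methionine salvage, stood at 5.51, 0 and 0.638 CPM in the KO embryos and at 49.7 and 18.5 CPM in the non-KO embryos (log2 -4.06 ± 0.92, adjusted p = 0.0434). Minpp1, an inositol polyphosphate phosphatase, stood at 3.01, 0.278 and 2.48 CPM against 30.9 and 29.2 CPM (log2 -3.94 ± 0.64, adjusted p = 0.00783). Nubp1, which assembles iron-sulfur clusters in the cytosol, stood at 17.6, 17.7 and 16.2 CPM against 55.1 and 60.7 CPM (log2 -1.75 ± 0.19, adjusted p = 0.00048). Its fall is smaller than that of Minpp1 but varied little between embryos. Tmem9b, a lysosomal membrane protein, stood at 33.3, 19.4 and 22.3 CPM against 109 and 164 CPM (log2 -2.45 ± 0.28, adjusted p = 0.000712). Ifitm2, an interferon-induced membrane protein, stood at 1.98, 0.278 and 0.355 CPM against 29.5 and 16.2 CPM (log2 -4.72 ± 0.62, adjusted p = 0.00185). Ifitm2 was also low in the 2 Alyref KO morulae, at 10.2 and 5.8 CPM, against 57.9, 59.5 and 50.4 CPM in their controls. The Gabpb1 KO effect minus the Alyref KO effect was -1.90 for Ifitm2 and was not called (adjusted p = 0.253). Gm45717 overlaps Ifitm2 on the same strand and Tvp23a overlaps Nubp1 on the opposite strand, so reads of these pairs may have been split. Fam120b, named after its values were seen, had 0 counts in every KO embryo and 9.18 and 9.36 CPM in the non-KO embryos. Against a floor of 3 counts per library it was at least 37.1-fold lower, and the 14 other embryos held 4.01 to 14.4 CPM.

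For other genes called lower, the level was also low in morulae of the Alyref cross. Ndrg1, a gene known for its induction in hypoxia, stood at 9.21, 1.67 and 0.993 CPM in the KO embryos and at 144 and 75.8 CPM in the non-KO embryos (log2 -4.80 ± 0.96, adjusted p = 0.025). The non-KO morulae of the Alyref cross were low as well, at 2.55, 4.13 and 17.9 CPM, and the blastocyst groups averaged 197 to 311 CPM. Dmkn, for the secreted epithelial protein dermokine, had 4.05, 0.648 and 9.58 CPM against 68.2 and 113 CPM (log2 -4.24 ± 0.91, adjusted p = 0.0345), and 9.45, 9.45 and 11.5 CPM in the non-KO morulae of the Alyref cross. The blastocyst groups averaged 31.5 to 68 CPM of Dmkn, below the mean of the 2 non-KO morulae of the Gabpb1 cross (90.8 CPM). Gpa33, an epithelial surface antigen, had 11.9, 1.39 and 4.18 CPM against 115 and 46.8 CPM (log2 -3.80 ± 0.77, adjusted p = 0.0266). Its direction turned to 0.44 when the non-KO morulae of the Alyref cross alone served as the control, a choice made after the data were seen.

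**Figure D2:**
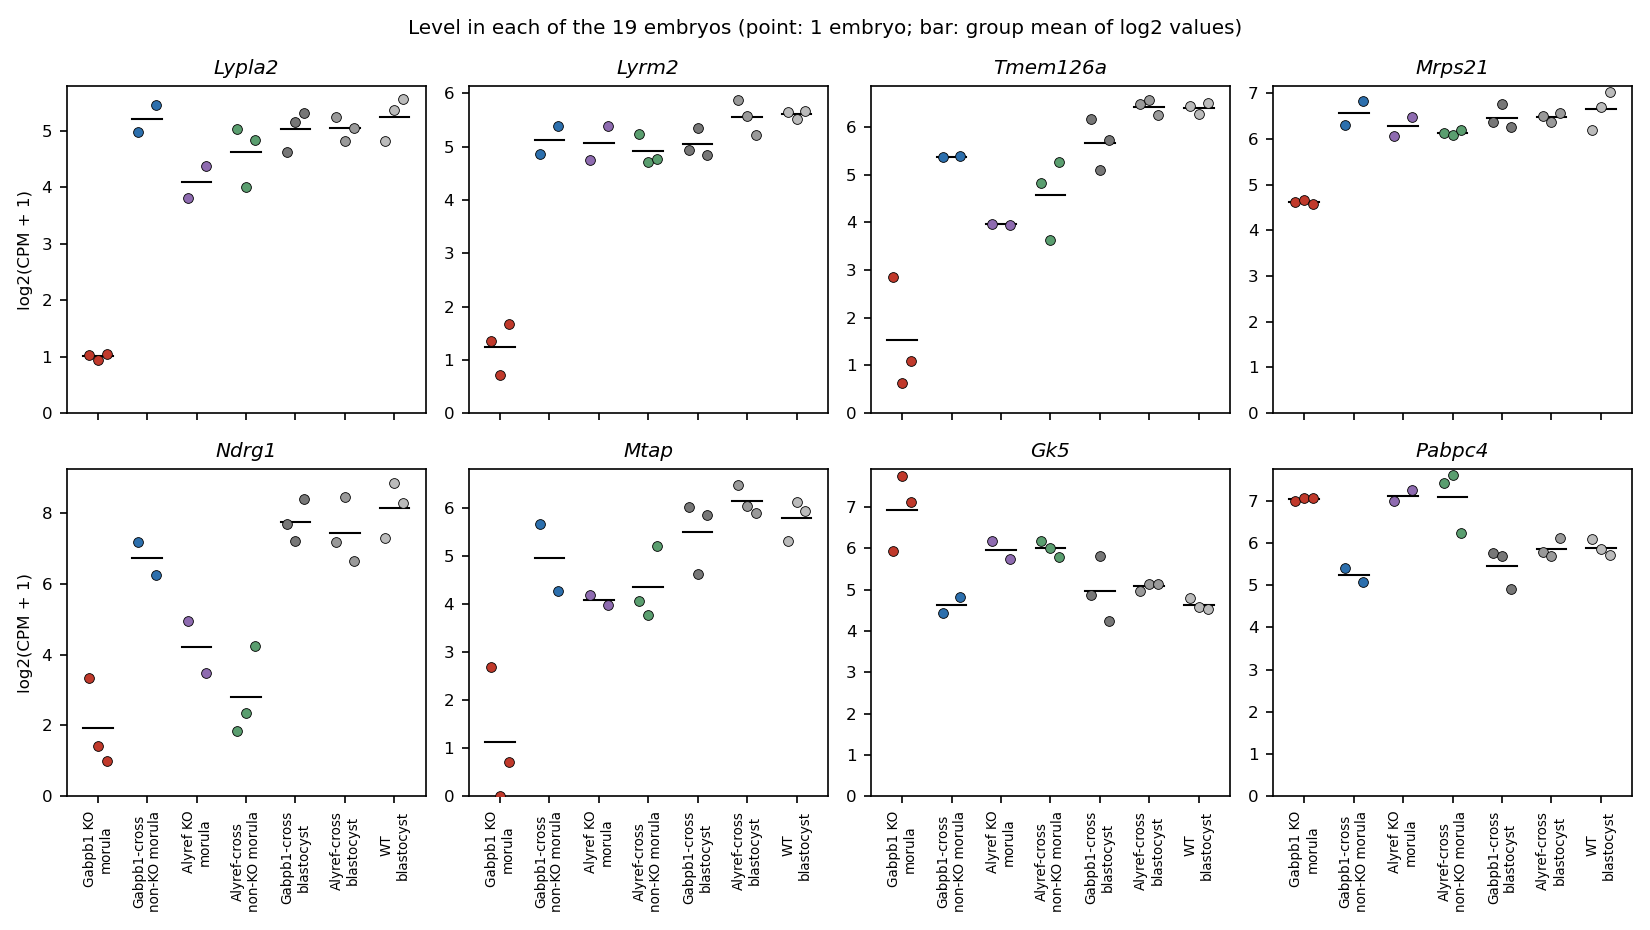
Each point is 1 embryo on the log2(CPM + 1) scale in 1 of the 7 groups, and each bar is the mean of the log2 values. For Lypla2, Lyrm2, Tmem126a, Mrps21 and Mtap the 3 KO embryos lie below the 16 others, while Ndrg1 is also low in the Alyref cross morulae, and Gk5 and Pabpc4 are low in the non-KO morulae of the Gabpb1 cross and in the blastocysts.

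The embryos outside the comparison separated these patterns over all called genes, by a criterion set after values were seen. In 122 of the 239 genes called lower (51.0%), every KO embryo lay below all 14 other embryos, against 367 of all 18410 genes tested (1.99%). In 90 of the 239 the KO embryos lay below the 9 blastocysts but not below the 5 Alyref cross morulae. Both non-KO morulae lay above all 5 Alyref cross morulae in 107 of the 239 (44.8%), against 13.4% of all genes. Of the 64 genes called higher, 9 (14.1%) had every KO embryo above all 14 others, against 219 of all tested genes (1.19%). In 49 of the 64 (76.6%) both non-KO morulae lay below all 5 Alyref cross morulae, against 12.2% of all genes. The calls rest on the same KO and non-KO values, so part of each excess over all genes follows from the call itself.

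With the 3 non-KO morulae of the Alyref cross as the only control, 105 of the 239 genes (43.9%) were again called lower and 6 of the 64 (9.38%) again called higher. With the non-KO morulae of both crosses as control the counts were 127 of 239 (53.1%) and 8 of 64 (12.5%). Without non-KO embryo 2, the control whose removal cost most calls, 47 of the 239 (19.7%) and 0 of the 64 were called. The 122 genes had medians of -1.45, -1.74 and -1.56 in the KO embryos, as log2(CPM + 1) minus the mean of the 2 non-KO embryos. The criterion itself sets those medians apart from the other embryos. For the other 117 genes called lower the KO medians were -1.50 to -1.60 and the medians of the 5 Alyref cross morulae were -0.82 to -1.40. In this second set the distance of the 2 non-KO embryos from the Alyref cross morulae and the KO label cannot be told apart.

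**Figure D3:**
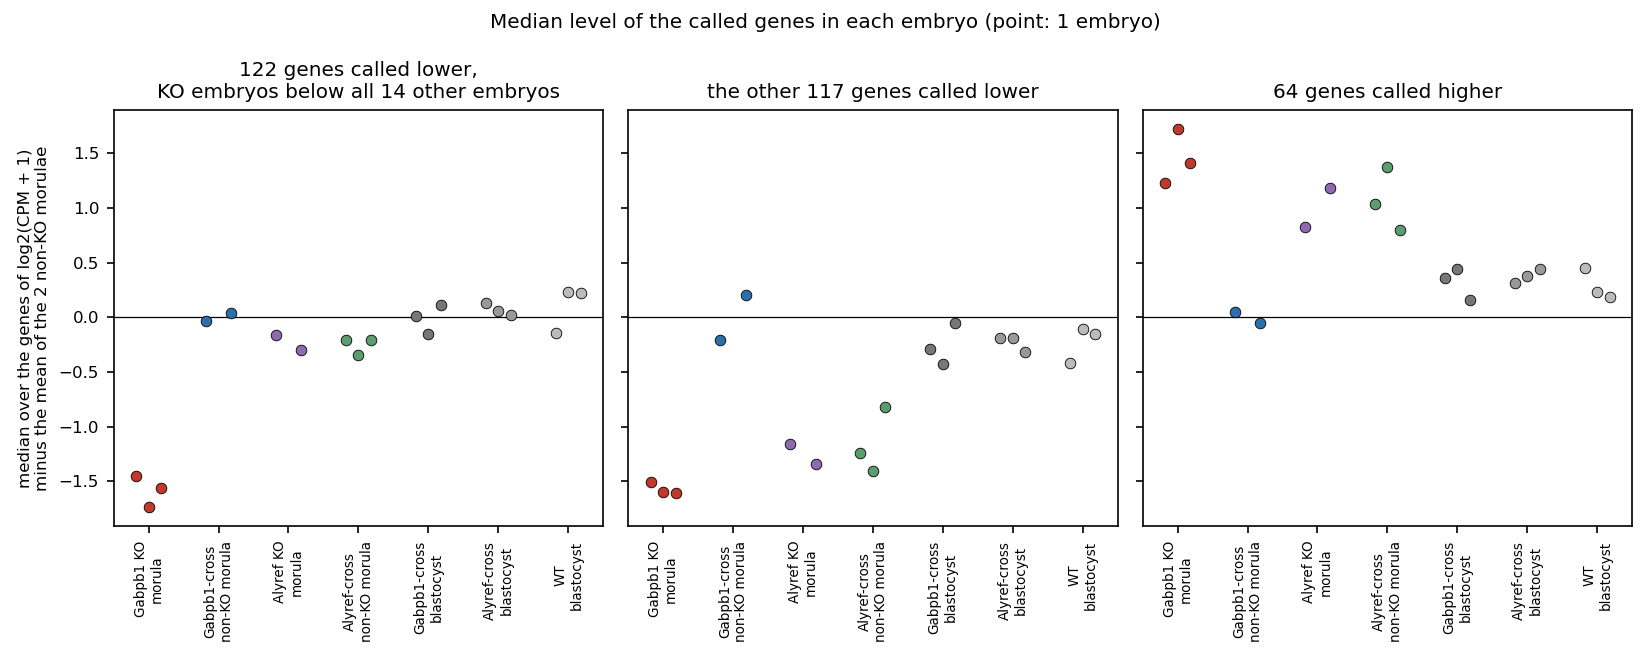
Each point is the median, over a set of called genes, of log2(CPM + 1) in 1 embryo minus the mean of the 2 non-KO morulae of the Gabpb1 cross. In the set of 122 the KO embryos stand alone at -1.45 to -1.74, in the set of 117 the Alyref cross morulae are also below 0, and in the set of 64 they are also above 0.

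The following mitochondrial-protein genes among the 122 were picked after their values were seen. Samm50, which inserts beta-barrel proteins into the outer membrane, stood at 4.05, 3.52 and 7.94 CPM in the KO embryos against 38.6 and 27.2 CPM (log2 -2.66 ± 0.47, adjusted p = 0.0113). Tufm, the mitochondrial translation elongation factor, stood at 43.6, 27.4 and 45.1 CPM against 94.9 and 102 CPM (log2 -1.35 ± 0.24, adjusted p = 0.0125). Nfs1, the cysteine desulfurase that supplies sulfur for iron-sulfur clusters, stood at 15.3, 17.1 and 18.2 CPM against 49.6 and 37.7 CPM (log2 -1.37 ± 0.31, adjusted p = 0.0435). In each of these genes every KO embryo lay below both non-KO embryos, as in 16.4% of all tested genes. Txn2, the mitochondrial thioredoxin, fell by 1.11 on the log2 scale, Sco1, a copper chaperone of cytochrome c oxidase, by 1.24, and Mtx2, an outer-membrane import protein, by 0.89. Promoters of Tufm, Txn2, Sco1, Nfs1 and Mtx2 each held at least 1 ETS core, and that of Samm50 held none. The calls of Txn2, Sco1, Nfs1 and Mtx2 were lost under 8, 8, 9 and 9 of 16 alternatives. Tfam, the packaging and transcription factor of mitochondrial DNA, just missed the threshold (25.7, 36.2 and 15.8 CPM against 68.1 and 64.6 CPM; log2 -1.36 ± 0.33, adjusted p = 0.051), although its KO embryos also lay below all 14 others. In the gene lists, called or not, the KO embryos lay below all 14 others in 6 of 78 mitochondrial ribosome genes and 1 of 21 genes of mitochondrial DNA expression (Tfam). They did so in 0 of 23 protein import, 0 of 36 complex I, 0 of 39 complex II to V and 0 of 17 tRNA synthetase genes, against 1.99% of all tested genes. In the upward direction, the KO embryos lay above all 14 others in 2 of the 78 and 1 of the 21, against 1.19% of all tested genes.

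The mitochondrial gene lists are given by their counts, beside the 1.3% of all tested genes called lower. Of 78 mitochondrial ribosome genes tested, 3 (3.85%) were called lower and 0 higher, with a list median of -0.01 against 0.06 over all tested genes. The 3 were Mrps21, Mrpl27 (48, 35.2 and 32.8 CPM against 68.9 and 85.1 CPM, log2 -0.99 ± 0.21, adjusted p = 0.0332) and Mrpl33 (51.5, 58.2 and 36.1 CPM against 76.8 and 139 CPM, log2 -1.15 ± 0.25, adjusted p = 0.0336), and all 3 promoters held a core. Eme1 overlaps Mrpl27 and Rbks overlaps Mrpl33 on the opposite strand. Summed over the list, the level was 9602, 10626 and 8309 CPM in the KO embryos and 8701 and 8990 CPM in the non-KO embryos, so the groups overlapped. At an unadjusted p under 0.05 in edgeR's test, 11 of the 78 were higher and 11 lower, against 8.64% and 10.2% of all tested genes. None of 36 nuclear complex I genes was called (median 0.07), and Ndufb5, with the smallest p, had log2 -0.83 ± 0.22 (adjusted p = 0.061). More members of this list leaned the other way, with 20 above 0 and 16 below. At an unadjusted p under 0.05 in the same test, 7 of the 36 were higher and 2 lower, against 8.64% and 10.2% of all tested genes. None of 39 genes of complexes II to V was called (median -0.03); Sdhd, a membrane anchor of complex II, stood at 115, 68.2 and 98.5 CPM against 311 and 232 CPM (log2 -1.53 ± 0.39, adjusted p = 0.0533). None of 21 genes of mitochondrial DNA expression (median 0.08), 23 of protein import (median 0.31) or 17 tRNA synthetases (median -0.58) was called, and the import list does not hold Samm50 or Mtx2. The medians of complex I, mitochondrial DNA expression and import turned negative under spike-in scaling, at -0.35, -0.43 and -0.26, and those of mitochondrial DNA expression, import and complexes II to V also changed sign against the non-KO morulae of the Alyref cross.

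Transcripts encoded in mitochondrial DNA were not called either, 0 of 13. Their summed level was 54432, 34828 and 31181 CPM in the KO embryos and 40886 and 37435 CPM in the non-KO embryos. Their median log2 fold change was 0.23, and -0.12 under spike-in scaling. For mt-Nd2, a complex I subunit and the member with the smallest p, the KO embryos had 3920, 4390 and 3250 CPM against 1910 and 1910 CPM (log2 1.01 ± 0.26, adjusted p = 0.0572).

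Of all tested genes 1.65% were called, and single calls fell in the lists of central metabolism and replication. Of 23 genes of pyruvate dehydrogenase and the TCA cycle, Idh3b, a subunit of isocitrate dehydrogenase, was lower (167, 64.1 and 156 CPM against 304 and 316 CPM, log2 -1.27 ± 0.29, adjusted p = 0.0443), and the list median was -0.16. Nop56 overlaps Idh3b on the opposite strand. Idh3b is also 1 of 8 called genes among 236 tested within 10 Mb of Gabpb1 (3.39%, against 1.65% of all genes), a stretch that KO embryos share with the targeted allele, and its part in these calls was not tested. Of 33 cell cycle genes, Mcm3, a subunit of the replicative helicase, was lower (15, 8.79 and 17.1 CPM against 53.9 and 33.8 CPM, log2 -1.69 ± 0.33, adjusted p = 0.0224), with a list median of 0.08 that was -0.52 under spike-in scaling. None of 17 glycolysis genes was called (median -0.61, and 0.59 against the non-KO morulae of the Alyref cross). The medians of the TCA and cell cycle lists changed sign against that control too. In the hypoxia list, Ndrg1 was called lower and no other of 17 members was called (median 0.51). Lypla2 was called in a list of 9 depalmitoylation enzymes, and its paralogue Lypla1 was not (log2 0.57, adjusted p = 0.514).

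Lineage markers bear on the stage of the embryos. Pou5f1, the pluripotency factor of the early embryo, was present in all 5 morulae at 69.8 to 120 CPM, and Cdx2, the trophectoderm factor, at 3.89 to 23.2 CPM. None of 17 trophectoderm transcription factors was called (median -0.57), and their summed level was 1334, 505 and 827 CPM in the KO embryos and 1629 and 1018 CPM in the non-KO embryos, which overlapped. None of 12 keratin and desmosome genes was called (median -1.14), and their sums of 2736, 765 and 1277 CPM lay below 4350 and 3266 CPM in the non-KO embryos. The Alyref cross morulae summed to 561 to 2080 CPM and the blastocysts to 4068 to 6906 CPM. Krt8 stood at 766, 145 and 408 CPM against 1570 and 961 CPM (log2 -1.52 ± 0.63, adjusted p = 0.208). Among 24 adhesion and tight junction genes Cldn4 was called lower (264, 217 and 244 CPM against 378 and 722 CPM, log2 -1.18 ± 0.28, adjusted p = 0.0446; list median -0.52). Against the non-KO morulae of the Alyref cross, Cldn4 came to 0.16, and the medians of the trophectoderm, keratin and adhesion lists changed sign, to 0.12, 0.54 and 0.26. None of 8 cavity pumps and channels was called (median -0.30). Atp1b1, a sodium pump subunit, stood at 48.5, 5.92 and 24.5 CPM against 109 and 152 CPM (log2 -2.31 ± 0.66, adjusted p = 0.0833).

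Epiblast and pluripotency genes gave no call among 19, with a median of 0.49. That median was -0.35 against the non-KO morulae of the Alyref cross. Klf2 had 28.6, 94.9 and 101 CPM against 14.2 and 19.2 CPM (log2 2.16 ± 0.58, adjusted p = 0.0696) and Klf4 had 61.5, 46.7 and 29.9 CPM against 17.9 and 10.3 CPM (log2 1.70 ± 0.53, adjusted p = 0.108). In both, every KO embryo lay above both non-KO embryos, as in 15.8% of all tested genes. Of 17 primitive endoderm genes none was called (median -0.60, and 0.42 against that control). The log2 fold change was below 0 in 12 of the 17, and at an unadjusted p under 0.05 there were 3 below and 1 above. Sox7, an endoderm transcription factor named, like Serpinh1, after its values were seen, stood at 0.344, 0 and 0 CPM against 4.27 and 0.989 CPM (log2 -4.46 ± 1.75, adjusted p = 0.193). Serpinh1, a collagen chaperone, stood at 1.98, 3.05 and 0.497 CPM against 15.6 and 4.94 CPM (log2 -2.49 ± 1.12, adjusted p = 0.247), and came to 0.42 against that control. Gata6, the member with the smallest p, stood at 188, 154 and 136 CPM against 81.3 and 105 CPM (log2 0.77 ± 0.27, adjusted p = 0.152). None of 24 p53 targets (median -0.12, with a sign change against that control) and none of 21 genes of the integrated stress response (median 0.35, and -0.23 under spike-in scaling) was called.

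**Figure D4:**
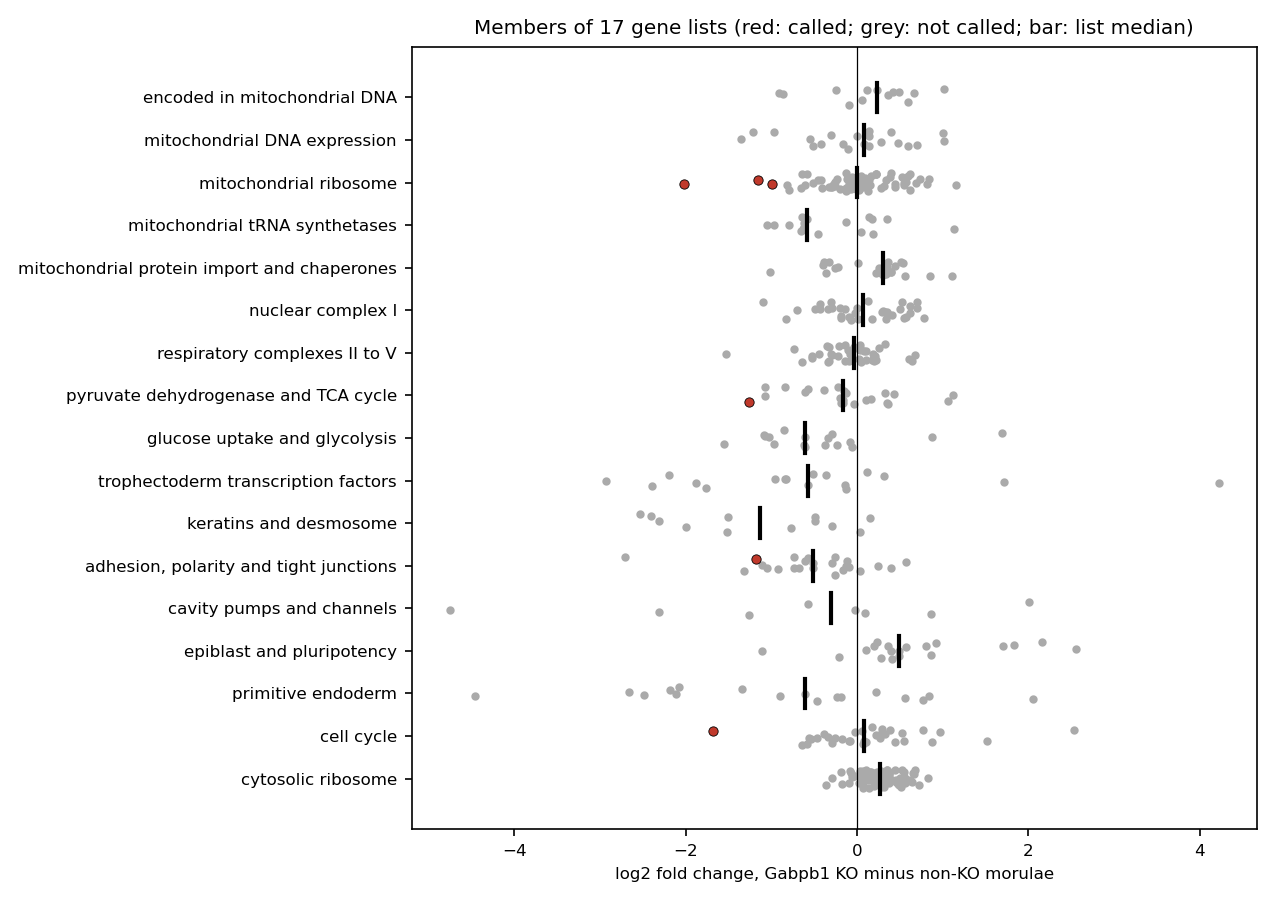
Each point is a member of 1 of 17 gene lists, placed by its log2 fold change, KO minus non-KO, with called members in red and a bar at the list median. The called members are single genes at the low end of their lists (Mrps21, Mrpl27, Mrpl33, Idh3b, Cldn4 and Mcm3), while medians run from -1.14 for keratins to 0.49 for epiblast genes.

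The rises among genes eligible for naming reached 2.52 on the log2 scale, against falls to -5.17. Gk5, a glycerol kinase, had the largest rise, with 60.4, 214 and 138 CPM in the KO embryos against 20.5 and 27.2 CPM (log2 2.52 ± 0.49, adjusted p = 0.0218). Pabpc4, a poly(A)-binding protein, stood at 127, 132 and 133 CPM against 41.2 and 32.6 CPM (log2 1.82 ± 0.35, adjusted p = 0.0222). Rhebl1, a small GTPase related to Rheb, stood at 29.3, 75 and 76.3 CPM against 19.6 and 11.1 CPM (log2 1.97 ± 0.47, adjusted p = 0.0463). The 5 Alyref cross morulae held 74.5 to 195 CPM of Pabpc4 and 38.8 to 104 CPM of Rhebl1. With the non-KO morulae of that cross alone as control, Pabpc4 came to -0.17 and Rhebl1 to -0.22.

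Suz12, a core subunit of Polycomb repressive complex 2, stood at 224, 263 and 205 CPM against 97.9 and 87.2 CPM (log2 1.32 ± 0.30, adjusted p = 0.0408). Zmym1, a zinc finger protein, had the smallest adjusted p among the rises named by the rule (126, 136 and 160 CPM against 56.6 and 45.9 CPM, log2 1.46 ± 0.24, adjusted p = 0.00783). Tfpt, a subunit of the INO80 chromatin remodeller, had 29.4, 37.7 and 39.8 CPM against 17.2 and 12.6 CPM (log2 1.26 ± 0.25, adjusted p = 0.023), and Ndufa3 overlaps it on the opposite strand. Ino80, the ATPase of that complex and named after its values were seen, also rose (20.5, 26.2 and 24.9 CPM against 7.4 and 7.3 CPM, log2 1.70 ± 0.32, adjusted p = 0.0197). Taf1d, a factor of RNA polymerase I that hosts several small nucleolar RNAs, rose by 1.31 ± 0.28 (adjusted p = 0.0346). The other rises named by the rule ran from 1.22 for BC052040 to 1.61 for Znrd1as, with Stx17 (autophagosome fusion) at 1.27, Cabp7 (a calcium-binding protein) at 1.29 and B3gnt9 (a glycosyltransferase) at 1.45. Each of Gk5, Pabpc4, Rhebl1, Suz12, Zmym1, Tfpt and Taf1d lost its call without non-KO embryo 2, when no gene was called higher.

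Of the 9 genes called higher whose KO embryos lay above all 14 others, Sycn and Zranb1 are given as examples chosen after their values were seen. Sycn, for the secretory granule protein syncollin, stood at 176, 187 and 170 CPM against 84.3 and 68.8 CPM, and at 43.6 to 133 CPM in the 14 others (log2 1.21 ± 0.24, adjusted p = 0.0245). Zranb1, a deubiquitinase, stood at 61.1, 62.7 and 51.3 CPM against 27.1 and 27.6 CPM, and at 21.9 to 38.9 CPM in the others (log2 1.09 ± 0.23, adjusted p = 0.0343). The other members were Grin1, Lyrm9, Ss18l2, Zfp106, Fbxo45, Pcnx4 and Gtf3c3.

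Promoter letters were then counted in the called genes, since the rule for calls does not use them. RefSeq windows were found for 9535 of the 18410 tested genes, for 166 of the 239 called lower and for 48 of the 64 called higher. The core CCGGAAG, on either strand, was in 20.8% of all tested genes with a window, in 38.6% of those called lower (64 genes) and in 12.5% of those called higher (6 genes). Within the genes called lower it was in 48.3% of the 89 whose KO embryos lay below all 14 others and in 27.3% of the other 77. Over all 367 genes with KO embryos below the 14 others, called or not, the share was 48.7% of 238, and over the 219 with KO embryos above them it was 7.58% of 132. The longer ACCGGAAGT, which contains the core, was in 2.63% of all tested genes, 4.82% of those called lower and 0% of those called higher.

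Motifs of other factors differed less between all tested genes and those called lower. The palindromic NRF1 motif, searched on both strands, was in 2.3% of all tested genes, 2.41% of those called lower and 2.08% of those called higher. GGAATG, the TEAD core, was in 14.3%, 14.5% and 18.8%, in the same order. The AP-2 letters GCCNNNGGC were in 27.2% of all tested genes, 24.7% of those called lower and 39.6% of those called higher. Position was measured for the ETS core CCGGAAG alone, in the first window of each gene. This core was centred within 50 bases of the start in 12.8% of protein-coding genes tested. The share was 28.9% of the genes called lower, 36% of the 89 and 6.25% of those called higher, all among genes with a window. Of the genes that hold the core, 65.7%, 78.7%, 78% and 60% had it within that distance, in the same order. Over all 32851 windows in the table, including genes not tested, 8.86% held the core. Of the 12 largest falls named by rule 9 had a window, and 2 of these (22.2%, Lypla2 and Tmem126a) held the core, against the 20.8% of all tested genes. Lyrm2, Minpp1, Ifitm2, Mtap, Dmkn, Wfdc15a and Gpa33 had no core in their window, and Ndrg1, Gm45717 and Gm6665 had no window.

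**Figure D5:**
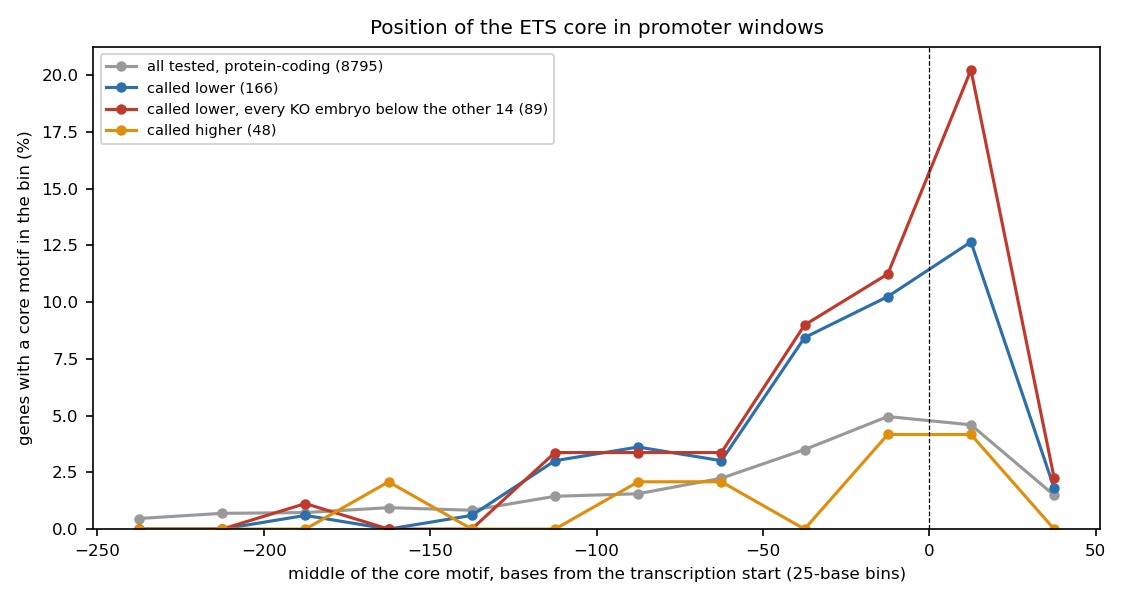
The y axis is the percentage of genes with a window that hold the core CCGGAAG, on either strand, in each 25-base bin, and the x axis is the distance of its middle from the transcription start. The genes called lower and the 89 whose KO embryos lay below all 14 others stand highest next to the start, above all tested protein-coding genes, and the 48 genes called higher do not.

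The effect of the Gabpb1 KO was set against that of the Alyref KO in morulae by an interaction contrast, to ask which changes differ between the 2 knockouts. The 2 effects use separate controls. The difference was called for 167 of 18410 genes (0.907%), 66 (0.359%) with the Gabpb1 effect above and 101 (0.549%) with it below. For Lypla2 the difference was -4.58 (adjusted p = 0.000766) and for Lyrm2 it was -4.71 (adjusted p = 0.000766). Lyrm2 stood at 26 and 41.1 CPM in the Alyref KO morulae and at 25.3 to 36.8 CPM in their controls. Lypla2 stood at 13.1 and 19.7 CPM and at 15 to 31.7 CPM. The count of 167 went down to 16 without non-KO embryo 2 of the Gabpb1 cross, to 63 without non-KO embryo 1, and to 19, 24 and 55 without Alyref KO morula 1, Alyref KO morula 2 and Alyref cross non-KO morula 1. It went up to 486 without Gabpb1 KO embryo 1 and to 707 without Alyref cross non-KO morula 3.

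Spike-in RNA added to each lysed embryo gave a measure of polyA RNA per embryo, the log2 ratio of gene counts to ERCC counts. It was 7.63, 5.66 and 6.67 in the KO embryos and 7.32 and 7.29 in the non-KO embryos. The means were 6.65 ± 0.989 (SD, n = 3) and 7.31 ± 0.0229 (SD, n = 2), and the difference of -0.653 gave p = 0.6 in an exact two-sided permutation test, which cannot go below 0.1 with these numbers. KO embryo 1 had the highest ratio of all 19 embryos and KO embryo 2 the lowest. Fewer cells in an embryo and less RNA per cell cannot be told apart in these data. Without KO embryo 1 the difference was -1.14 and without KO embryo 2 it was -0.154.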

How the data were processed

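PolyA RNA was measured in single embryos. The authors deposited 1 table of raw counts per gene and embryo; its name announces FPKM, but the values are whole numbers whose totals differ between embryos. Per the submitters' processing notes, Trimmomatic, Trim Galore, cutadapt, STAR, featureCounts and mm10 were used. Roles, versions and the strand setting are not given in the sources used here. cDNA was amplified over 16 PCR cycles per the labels, and no molecular identifiers are described, so the floor of 3 counts covers counting error only. The table has 53379 gene rows and 92 ERCC rows; ERCC rows entered no gene test.

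Genes with FPKM (computed from counts and the deposited length) of 1 or more in at least 2 of 19 embryos were tested with edgeR 4.0.16 (R 4.3.3): TMM scaling, 1 mean for each of 7 groups, quasi-likelihood F test, Benjamini-Hochberg adjustment. The SE was taken from the log2 fold change and F. CPM use TMM-scaled library sizes, and embryo medians use log2(CPM + 1). Named by rule were the 12 largest rises and 12 largest falls among called protein-coding genes without overlap and with a mean FPKM of 5 or more, the 5 smallest adjusted p, the GABP subunits, called list genes and list members of smallest p; other names are stated as chosen after values were seen. Of the 30 gene lists, none was tested as a set. The members and lists were chosen with earlier results of these data known. Alternatives were other scalings, filters, tools (DESeq2 1.42.0, limma 3.58.1), controls, a sex covariate, a replicate block and leaving out embryos. The fits were tested on simulated data. For simulated KO and non-KO morulae, a true log2 shift of 1 was recovered in 0 of 67 genes. A shift of 2 was recovered in 32 of 67 (47.8%) and a shift of 3 in 41 of 66 (62.1%), and 6 calls were wrong. A gene list without a call is therefore no evidence that its members were unchanged.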

Additional observations from a re-analysis of the deposited data

Results flagged for a closer look

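The Gabpb1 KO effect and the Alyref KO effect differed, by the interaction contrast in edgeR's quasi-likelihood test, for 167 genes, among them 12 of the genes named by rule. The Gabpb1 effect was lower for Lypla2 by -4.58, for Lyrm2 by -4.71 (adjusted p = 0.000766 for each), for Ndrg1 by -6.07 (adjusted p = 0.0383), for Wfdc15a by -5.53 (adjusted p = 0.0253), for Minpp1 by -4.07 (adjusted p = 0.0375), for Gpa33 by -5.53 (adjusted p = 0.0276), for Tmem9b by -2.72 (adjusted p = 0.00806) and for Mrps21 by -2.17 (adjusted p = 0.0149). It was higher for Zmym1 by 1.66 (adjusted p = 0.0279), for B3gnt9 by 2.33 (adjusted p = 0.0276), for Suz12 by 2.03 (adjusted p = 0.0338) and for BC052040 by 2.01 (adjusted p = 0.0276). The 2 effects use separate controls, which were unlike for some of these genes. Ndrg1 averaged 110 CPM in the non-KO morulae of the Gabpb1 cross and 8.19 CPM in those of the Alyref cross, and Gpa33 81.1 and 4.27 CPM. For Lyrm2 they were closer, at 34.4 and 29.5 CPM. Suz12 averaged 131 CPM in the Alyref KO morulae and 214 CPM in their controls, so its difference includes a fall there. The same holds for B3gnt9 (8.26 and 15.3 CPM) and BC052040 (33.6 and 58.1 CPM). Wfdc15a averaged 46.9 CPM in the Alyref KO morulae and 16.1 CPM in their controls, so its difference includes a rise there. No group held enough embryos for a test of single outlying embryos.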

How the results depend on the processing

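With 3 and 2 embryos the counts of calls moved with most settings. The 303 calls became 26 with spike-in scaling, 1284 with DESeq2's Wald test, 463 with limma-voom and embryo weights, 178 with Y-linked expression as a covariate, 0 in the fit on the 5 embryos alone (edgeR; 2180 at an unadjusted p under 0.05) and, as alternatives added after the data were seen, 473 with the non-KO morulae of the Alyref cross as control. Leaving out 1 embryo gave 48 to 966 calls. The difference between the KO effects, 167 calls, became 10 with spike-in scaling, 894 with DESeq2 and 773 with limma-voom, and 16 to 707 with 1 embryo left out. Same-numbered embryos share only a number (correlations of deviations 0.14 and 0.03). With the replicate block the counts were 357 and 796, and the spike-in ratio over 2 pairs was -0.662 against -0.653; every alternative kept its sign. Of the called genes that the text names, 56 were followed through up to 16 alternatives, which did not include leaving out an Alyref cross morula. In 51 of the 56 the direction was kept throughout. Lypla2, Lyrm2, Ifitm2 and Gm45717, which overlaps Ifitm2 on the same strand, kept their call under all but the fit on the 5 embryos. Fam120b did so too, with 15 alternatives. Against the non-KO morulae of the Alyref cross the direction reversed for Rhebl1 (-0.22), Pabpc4 (-0.17), Gpa33 (0.44), Cldn4 (0.16) and Nhp2 (-0.14), and for Krt7 (1.35), Krt8 (0.28) and Serpinh1 (0.42), which were not called. The cause of these shifts was not tested. When an embryo is left out of the non-KO group, the lone one is assumed to vary like the other groups.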

Other observations

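The following host genes of small nucleolar RNAs, picked after values were seen, were among the 64 genes called higher, and host genes that were not called were not counted. Gas5 stood at 381, 865 and 515 CPM in the KO embryos against 159 and 185 CPM (log2 1.77 ± 0.37, adjusted p = 0.029), Snhg5 at 118, 148 and 129 CPM against 46.5 and 33.8 CPM (log2 1.71 ± 0.33, adjusted p = 0.0199), Snhg1 at 148, 214 and 98.5 CPM against 62.3 and 38.6 CPM (log2 1.60 ± 0.35, adjusted p = 0.0368) and Zfas1 at 72.5, 86.7 and 59.2 CPM against 38.9 and 26.1 CPM (log2 1.16 ± 0.28, adjusted p = 0.0468). Nhp2, a protein of H/ACA small nucleolar particles, rose by 1.13 ± 0.24 (adjusted p = 0.0345). Of 82 cytosolic ribosome genes 73 had a log2 fold change above 0 and none was called (median 0.27, and -0.16 with spike-in scaling; it changed sign against the non-KO morulae of the Alyref cross as well). The Alyref KO morulae averaged 539 CPM of Gas5 and 133 CPM of Snhg5, both within the range of the Gabpb1 KO embryos, and with the non-KO morulae of the Alyref cross as control none of the 5 genes was called.

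Among the 122 genes with KO embryos below all 14 others were parts of complexes outside the mitochondrion, also picked after values were seen. Tprkb, a subunit of the KEOPS tRNA-modifying complex, stood at 11.9, 8.52 and 11.6 CPM against 39.6 and 61.6 CPM (log2 -2.25 ± 0.29, adjusted p = 0.00185). Zfp410, a zinc finger transcription factor, stood at 16.4, 13.2 and 13.2 CPM against 71.3 and 63.4 CPM (log2 -2.24 ± 0.27, adjusted p = 0.000861). Umps, the enzyme of the last steps of UMP synthesis, stood at 23.6, 12.5 and 26.2 CPM against 111 and 72.8 CPM (log2 -2.14 ± 0.33, adjusted p = 0.00492). The telomere proteins Stn1 and Tinf2 fell by 2.40 and 1.61 on the log2 scale (adjusted p = 0.0125 and 0.0129). Ap1m1, a clathrin adaptor subunit, fell by 2.48, Mlx, a partner of glucose-sensing transcription factors, by 1.99, Anapc4, a subunit of the anaphase-promoting complex, by 1.66 and Supt16, a histone chaperone subunit, by 0.95. Of these, Tprkb, Supt16, Anapc4 and Tinf2 had an ETS core in their promoter window, Umps, Mlx and Stn1 had none, and Zfp410 and Ap1m1 had no window.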
